A study of Mus musculus with 10 samples.

Results

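The actin isoforms are the 6 genes that encode conventional actin in mice, taken by symbol from a table of 36144 genes. They are the muscle actins Acta2, Actg2, Acta1 and Actc1 and the cytoplasmic actins Actb and Actg1. RNA levels were compared between Adamts7 overexpression and wild-type cultures of primary vascular smooth muscle cells from the aortas of male mice aged 8 weeks, with 3 mice of each genotype. The overexpression mice carry the driver Myh11-Cre-ERT2, which acts in smooth muscle once tamoxifen is given, together with Adamts7 overexpression. Adamts7 is a secreted metalloprotease. The labels name no Cre driver for wild-type mice and do not say which mice received tamoxifen, so the driver, any tamoxifen and the overexpression cannot be told apart. Cells of both genotypes were freed from the aortic media by enzymes, grown in serum and used between passages 2 and 7, with no passage named for a given library. Library titles of the overexpression RNA samples begin with the abbreviation for wild type, whereas their genotype label says overexpression, and the genotype label was followed. The series title places the question in smooth muscle foam cells of atherosclerosis.

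Actin is the protein of thin filaments. Acta2, smooth muscle alpha-actin, is the main contractile actin of the arterial wall and a standard marker of differentiated smooth muscle, while Actg2, smooth muscle gamma-actin, is best known from gut and bladder. Acta1 is the skeletal and Actc1 the cardiac alpha-actin, and Actb and Actg1 form the cytoskeleton of nearly all cells. The 6 proteins are almost identical, and the coding sequences are alike as well, whereas the untranslated regions differ. Short reads from the coding part can therefore match several of these genes, and the deposited values are estimates in which such reads were divided between them. How far this moved a single value was not tested. Actin genes are classic targets of serum response factor (SRF), which binds the CArG box and acts with myocardin or with the related MRTF proteins, which unpolymerised actin holds in the cytoplasm.

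Sequence before the start of 4 of the 6 genes is shown because the CArG box is the element that muscle and cytoplasmic actins share. It is given 5′ to 3′ on the coding strand, which is the minus strand for all 4, from RefSeq in build GRCm38.p6, with CArG boxes matched exactly or with 1 mismatch in capitals. For Acta1, Actc1 and Actg1 these are the 250 bases before the gene, at chr8:123894776-123895025, chr2:114052876-114053125 and chr11:120348496-120348745. For Acta2 the RefSeq promoter table uses a start at base 34255373 of chromosome 19, which lies inside the gene's span, since the span ends at 34255585. Of the 250 bases before that start 212 are inside the span, so for Acta2 only 30 bases around each site are shown, at chr19:34255438-34255467 and chr19:34255388-34255417. No sequence is shown for Actg2 and Actb.
Acta2, first site: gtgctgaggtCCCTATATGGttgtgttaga
Acta2, second site: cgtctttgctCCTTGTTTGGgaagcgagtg
Acta1: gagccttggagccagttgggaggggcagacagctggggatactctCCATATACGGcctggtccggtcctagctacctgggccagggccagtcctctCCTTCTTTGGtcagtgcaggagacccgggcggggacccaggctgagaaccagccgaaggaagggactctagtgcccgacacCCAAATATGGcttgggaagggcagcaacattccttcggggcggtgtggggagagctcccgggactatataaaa
Actc1: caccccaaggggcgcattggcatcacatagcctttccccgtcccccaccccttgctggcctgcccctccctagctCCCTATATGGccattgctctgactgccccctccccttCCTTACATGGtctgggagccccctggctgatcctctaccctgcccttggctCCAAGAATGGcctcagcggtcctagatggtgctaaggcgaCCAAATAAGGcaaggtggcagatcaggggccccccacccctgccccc
Actg1: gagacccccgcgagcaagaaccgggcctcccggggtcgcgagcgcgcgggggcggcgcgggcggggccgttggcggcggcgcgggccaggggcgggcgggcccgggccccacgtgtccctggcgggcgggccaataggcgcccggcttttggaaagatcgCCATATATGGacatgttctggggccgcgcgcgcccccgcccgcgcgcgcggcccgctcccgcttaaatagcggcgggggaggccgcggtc
The 250 bases before the Acta2 start of that table held 2 sites with 1 mismatch, beginning 84 and 34 bases upstream of it, and no exact box. Measured from the end of the gene's span, both sites lie inside the gene. The Acta1 stretch held 1 exact box beginning 73 bases upstream and 2 sites with 1 mismatch. The Actc1 stretch held 1 exact box beginning 47 bases upstream and 3 sites with 1 mismatch. The Actg1 stretch held 1 exact box, beginning 90 bases upstream, and no other site. The box reads alike on both strands, so one search covered both. Of 27025 genes with a stretch of this length, 1.4% held an exact box and 18.9% held a site with up to 1 mismatch. A match of letters does not show that SRF was bound there.

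Adamts7 itself stood at 98.7, 79.1 and 75.8 TPM in overexpression replicates 1, 2 and 3, against 6.08, 6.18 and 8.20 TPM in the wild-type libraries, so the labels and this gene point the same way. TPM is RNA abundance per transcript length, scaled to 1000000 per library. Between 18802 and 19184 genes were above 0 in a library, and read depth is unknown. Of the defining smooth muscle markers, Tagln was abundant, at 947 to 1236 TPM in overexpression and 828 to 855 TPM in wild-type cultures, while the smooth muscle myosin gene Myh11, named after its values were seen, was at 48.2 to 59.4 TPM in overexpression and 30.7 to 43.9 TPM in wild-type cultures. Endothelial and macrophage markers were abundant as lists, and the endothelial list summed to more than the smooth muscle list in every library. The smooth muscle list has 10 genes and leaves out Acta2, which alone stood at 1209 to 2335 TPM, and the endothelial list has 12. Their sums therefore do not compare the amounts of the cell types. Summed over 14 macrophage markers, the level was 1092 to 3491 TPM in overexpression and 445 to 670 TPM in wild-type cultures, and 14 of 14 had all overexpression libraries above all wild-type libraries, where 14.3% of all genes tested did. Summed over 12 endothelial markers, it was 2390 to 3940 TPM in overexpression and 4656 to 5168 TPM in wild-type cultures, with all overexpression libraries below all wild-type libraries for 8 of 12, where 12.9% of all genes tested were. These are bulk cultures, so more cells of a type and more RNA per cell cannot be told apart, for actins as for markers. The part of these markers in the actin values was not tested.

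The RNA of Acta2, Actg2 and Acta1 was at a higher level in every overexpression library than in any wild-type library and cytoplasmic actin RNA differed less, but no actin passed the threshold of limma over all genes. Of the 5 actins averaging 1 TPM or more, 4 had a fold change above 0, where 48.3% of the 13131 genes tested did. The same 4 had all overexpression libraries above all wild-type libraries, Acta2, Actg2, Acta1 and Actg1, and 14.3% of genes tested did so. At an unadjusted p under 0.05, 3 of 5 were higher, Acta2, Actg2 and Acta1, where 10.6% of genes tested were. At an adjusted p under 0.05, 0 of 5 were called, where 0.0152% of all genes were, or 2 genes. At an unadjusted p under 0.05, 1 of 5 was higher without wild-type replicate 1, 2 or 3, where 7.55%, 8.09% and 7.57% of all genes were. The plot of actin levels by library shows these values.

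**Figure D1:**
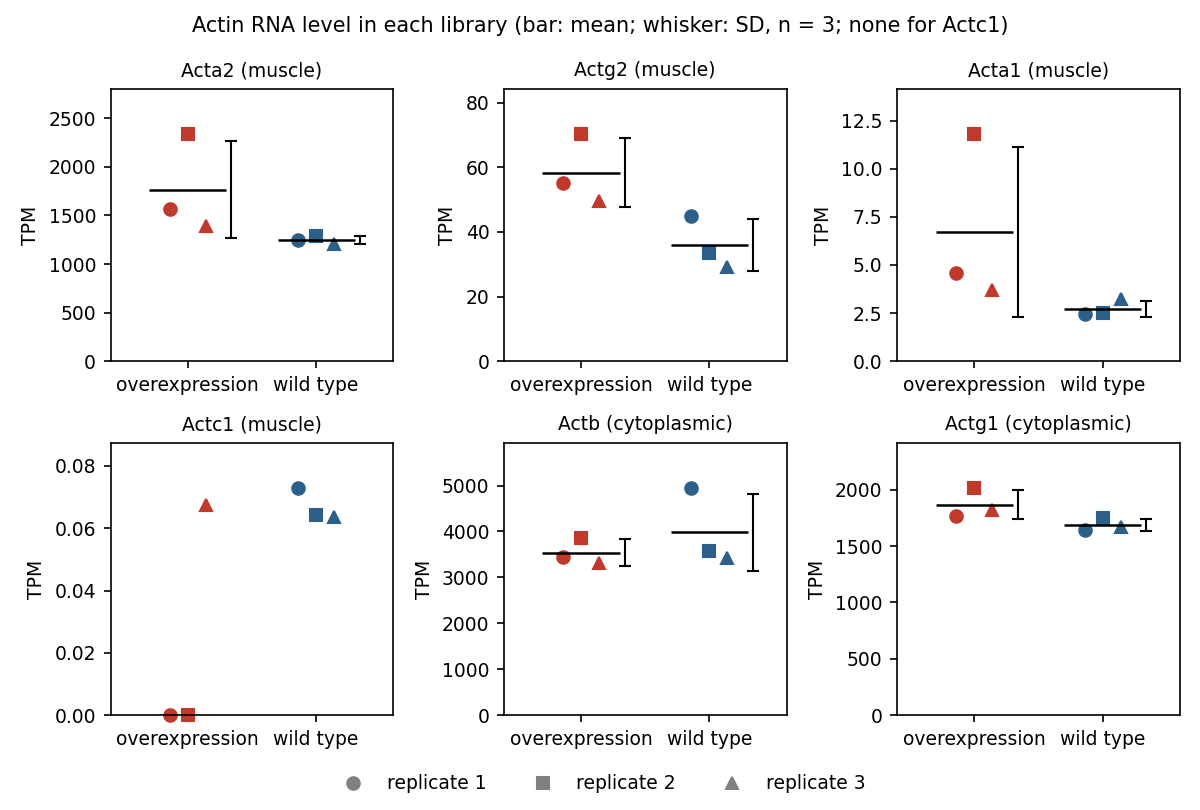
RNA level in TPM (linear axis from 0) of the 6 actins in each library, overexpression on the left and wild type on the right, with the mean as a bar and the SD as a whisker (n = 3 each), except for Actc1. Overexpression replicate 2 was the highest library for Acta2, Actg2, Acta1 and Actg1, and wild-type replicate 1 the highest for Actb.

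Acta2, the contractile actin of arteries, was the most abundant muscle actin. It stood at 1566, 2335 and 1393 TPM in overexpression replicates 1, 2 and 3, against 1246, 1291 and 1209 TPM in the wild-type libraries. The groups did not overlap, the wild-type libraries lay close together, and overexpression replicate 2 was far above the others. The means were 1764 ± 501 TPM in overexpression and 1249 ± 40.8 TPM in wild-type cultures (SD, n = 3 each), a coefficient of variation of 28.4% in overexpression and 3.27% in wild-type cultures. On the log2(TPM + 1) scale this was a fold change of 0.46 (standard error 0.18, 95% interval 0.05 to 0.87, limma adjusted p = 0.218). Without overexpression replicate 2 it was 0.24 (adjusted p = 0.204). When libraries were weighted by quality it was 0.33 and was called (adjusted p = 0.0341, over alternatives ranging from 0.0341 to 0.432), in a fit that called 2728 genes. By mean level Acta2 ranked 56 among 36144 genes in overexpression and 79 in wild-type cultures.

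Actg2, the smooth muscle gamma-actin, had the smallest p of the family. Its level was 55.1, 70.2 and 49.7 TPM in overexpression replicates 1, 2 and 3, against 45.0, 33.6 and 29.2 TPM in the wild-type libraries. Every overexpression library was above every wild-type library, with wild-type replicate 1 nearest to the other group. The means were 58.3 ± 10.7 and 35.9 ± 8.12 TPM in overexpression and wild-type cultures (SD, n = 3 each). Its log2 fold change came to 0.69 (standard error 0.18, 95% interval 0.27 to 1.11, limma adjusted p = 0.14). This placed Actg2 at rank 540 by p among the genes tested. It was called with library weights (log2 fold change 0.69, adjusted p = 0.00906, over alternatives ranging from 0.00906 to 0.358). Actg2 made up 2.91% to 3.43% of muscle actin TPM in overexpression and 2.35% to 3.48% in wild-type cultures, so its part in the muscle actins overlapped between the genotypes.

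Acta1 and Actc1, the actins of striated muscle, were rare. Acta1 stood at 4.59, 11.8 and 3.72 TPM in overexpression replicates 1, 2 and 3, against 2.45, 2.49 and 3.21 TPM in the wild-type libraries. The groups did not overlap, but overexpression replicate 3 lay close to wild-type replicate 3, and overexpression replicate 2 was well above all others. The means were 6.70 ± 4.43 TPM in overexpression and 2.72 ± 0.426 TPM in wild-type cultures (SD, n = 3 each). Its log2 fold change came to 0.91 (standard error 0.35, 95% interval 0.08 to 1.74, limma adjusted p = 0.225). Without overexpression replicate 2 it was 0.47 (adjusted p = 0.26), and with a pseudocount of 5 in place of 1 it was 0.54, and a larger pseudocount shrinks the fold change of a low gene. Actc1 was listed at 0, 0 and 0.0676 TPM in overexpression cultures and at 0.0728, 0.0642 and 0.0635 TPM in wild-type cultures, with overlap, and fell under the filter of the test. No direction is read from it.

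Markers of striated muscle were low in every library. Of 15 skeletal muscle markers 13 had a mean under 1 TPM, among them Myod1 and Myh4, the last of which was listed at 0 in all 6 libraries. The list summed to 6.78 to 11.8 TPM in overexpression and 6.95 to 9.02 TPM in wild-type cultures, with the highest sum in overexpression replicate 2, as for Acta1. The 2 that could be tested were Tnnt1, a troponin gene, with a log2 fold change of -0.54, and the myosin light chain gene Mylpf with 0.02. Of 10 cardiac markers 5 had a mean under 1 TPM, and the list summed to 13.9 to 23.9 TPM in overexpression and 13.6 to 15.1 TPM in wild-type cultures. Tnnt2, cardiac troponin T, was at 4.24, 6.44 and 3.09 TPM in overexpression and 1.02, 1.57 and 1.75 TPM in wild-type cultures (log2 fold change 1.16, limma adjusted p = 0.131), Tnni3 had 0.21 and Tnnc1 -0.08. The part of these markers in the Acta1 values was not tested.

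Actb, the beta-actin often used to normalise other genes, was the most abundant actin. Its level was 3445, 3863 and 3311 TPM in overexpression replicates 1, 2 and 3, against 4939, 3576 and 3419 TPM in the wild-type libraries. The groups overlapped, and wild-type replicate 1 was the highest of the 6. The means were 3540 ± 288 TPM in overexpression and 3978 ± 836 TPM in wild-type cultures (SD, n = 3 each). Its log2 fold change came to -0.15 (standard error 0.14, 95% interval -0.49 to 0.19, limma adjusted p = 0.601). Without wild-type replicate 1 it was 0.01, so the sign rested on that library. Wild-type replicate 1 also had the highest share of mitochondrially encoded TPM, 14.3% against 12.0% to 13.0% in the other libraries, and the part of this in its Actb value was not tested.

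Actg1, the cytoplasmic gamma-actin, varied little within each genotype. It stood at 1766, 2011 and 1820 TPM in overexpression replicates 1, 2 and 3, against 1646, 1747 and 1665 TPM in the wild-type libraries. The groups did not overlap, though overexpression replicate 1 was barely above wild-type replicate 2. Its log2 fold change came to 0.14 (standard error 0.07, 95% interval -0.02 to 0.31, limma adjusted p = 0.307). Under quantile normalisation it was -0.01, so its direction depended on the scaling. The Acta2 estimate of 0.46 lay outside this interval, but the Acta2 interval, 0.05 to 0.87, overlapped it. Without overexpression replicate 2 the Acta2 estimate, 0.24, lay inside it. No test compared Actg1 with Acta2.

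**Figure D2:**
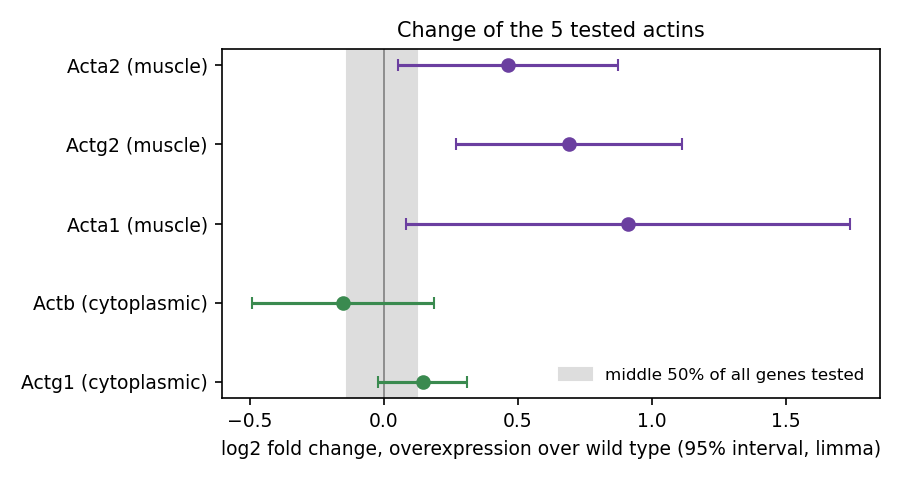
Log2 fold change of overexpression over wild type on the log2(TPM + 1) scale for the 5 tested actins, with the 95% interval of limma, and a band for the middle 50% of all genes tested. The muscle actins lie at 0.46, 0.69 and 0.91, and the cytoplasmic actins at -0.15 and 0.14 (at 0.01 for Actb without wild-type replicate 1 and -0.01 for Actg1 under quantile normalisation).

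Levels could be ordered within the family because TPM are per length. In wild-type cultures the order was Actb, Actg1, Acta2, Actg2, Acta1 and Actc1, and each wild-type library kept it. In overexpression cultures the means of Actg1 and Acta2, 1866 ± 129 and 1764 ± 501 TPM (SD, n = 3 each), did not differ beyond their spread, and in overexpression replicate 2 Acta2 was above Actg1. All other neighbours in the order were apart by more than their spread. Across all genes the median log2 fold change was -0.01, with a middle 50% from -0.14 to 0.12, so the 3 muscle actins lay above that range, Actg1 just above it and Actb just below it.

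Muscle actins made up a larger share of actin RNA in every overexpression library than in any wild-type library. This share does not depend on the scaling of the library. Reads divided otherwise within a class would move it only as far as transcript lengths differ, which was not computed. The 4 muscle actins summed to 1625, 2417 and 1446 TPM in overexpression replicates 1, 2 and 3, against 1294, 1327 and 1242 TPM in the wild-type libraries, without overlap. Their share of all actin TPM was 23.8%, 29.1% and 22.0% in the overexpression libraries and 16.4%, 19.9% and 19.6% in the wild-type libraries. The means were 25.0% ± 3.73 in overexpression and 18.7% ± 1.95 in wild-type cultures (SD, n = 3 each), a difference of 6.31 percentage points, with 4.22 without overexpression replicate 2 and 5.18 without wild-type replicate 1. Reads divided wrongly between Acta2 and a cytoplasmic actin would move this share, and that was not tested. No p is given for sums over genes chosen together.

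The cytoplasmic pair summed to 5211, 5874 and 5131 TPM in the overexpression libraries, against 6585, 5324 and 5084 TPM in the wild-type libraries. The groups overlapped, and the difference in means, -259 TPM, was 202 TPM without wild-type replicate 1. The muscle sum differed by 542 TPM, and by 248 TPM without overexpression replicate 2. All 6 actins together came to 6836, 8291 and 6577 TPM in the overexpression libraries, against 7879, 6650 and 6326 TPM in the wild-type libraries, or 0.658% to 0.829% and 0.633% to 0.788% of library TPM. The difference in total actin was 283 TPM, and lay between -245 TPM without overexpression replicate 2 and 747 TPM without wild-type replicate 1, so total actin had no steady direction.

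**Figure D3:**
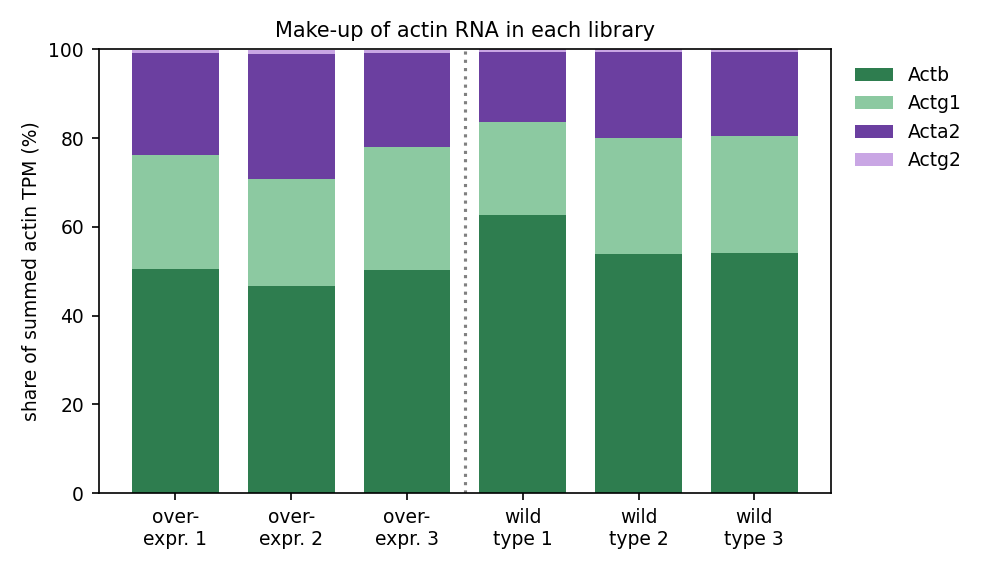
Share of summed actin TPM held by Actb, Actg1, Acta2 and Actg2 in each library, in percent, with overexpression libraries left of the dotted line. Acta1 and Actc1 are too rare to be seen. Acta2 held 21.2% to 28.2% in the overexpression libraries and 15.8% to 19.4% in the wild-type libraries.

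Ratios within a library showed the same split. The ratio of Acta2 to Actb was 0.454, 0.604 and 0.421 in overexpression replicates 1, 2 and 3, against 0.252, 0.361 and 0.354 in the wild-type libraries, without overlap. The ratio of Acta2 to Actg1 was 0.886, 1.16 and 0.765 in the overexpression libraries and 0.757, 0.739 and 0.726 in the wild-type libraries, where overexpression replicate 3 lay barely above wild-type replicate 1. The ratio of Actb to Actg1 was 1.95, 1.92 and 1.82 in the overexpression libraries and 3.00, 2.05 and 2.05 in the wild-type libraries. The last ratio was lower in every overexpression library, and wild-type replicate 1 stood apart from the other wild-type libraries. Further genes that resemble actin, named after their values were seen, were nearly silent. The pseudogene Actg-ps1 was at 0.0872 to 0.768 TPM and Actbl2 at 0 to 0.0554 TPM over all libraries.

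The overexpression cultures differed among themselves in the same order for all 3 tested muscle actins, with replicate 2 highest and replicate 3 lowest. The cytoplasmic Actb had this order too, at 3445, 3863 and 3311 TPM, whereas Actg1 did not. The order was therefore not particular to muscle actins, and the share of all genes with it was not computed. The 10 smooth muscle markers, none of them an actin, summed to 1796, 2347 and 1572 TPM in overexpression replicates 1, 2 and 3, against 1353, 1361 and 1298 TPM in the wild-type libraries. Tpm2, a muscle tropomyosin that lies along the thin filament, was at 398, 682 and 290 TPM in overexpression and 196, 195 and 166 TPM in wild-type cultures (log2 fold change 1.21, limma adjusted p = 0.131), and Tagln, the actin-binding transgelin, had 0.33. By count, 9 of 10 smooth muscle markers had a fold change above 0, where 48.3% of all genes tested did. At an unadjusted p under 0.05, 5 of 10 were higher, where 10.6% of all genes were. At an adjusted p under 0.05, 0 of 10 were called, where 0.0152% of all genes were. The median log2 fold change was 0.32 (0.52 with library weights). The marker that was lower was Smtn, named after its values were seen. Smtn stood at 134, 135 and 127 TPM in overexpression and 150, 137 and 143 TPM in wild-type cultures. The macrophage list had its highest sum in replicate 1, 3491 TPM against 2831 and 1092 TPM in replicates 2 and 3, and the endothelial list its lowest in replicate 2, 2390 TPM against 3263 and 3940 TPM in replicates 1 and 3. The fibroblast list summed to 579, 838 and 345 TPM in overexpression replicates 1, 2 and 3 and 242 to 273 TPM in wild-type cultures. The visceral smooth muscle and pericyte list summed to 218, 324 and 193 TPM in overexpression replicates 1, 2 and 3 and 188 to 204 TPM in wild-type cultures. The smooth muscle, fibroblast and visceral or pericyte sums thus had the order of the muscle actins among the overexpression libraries. The macrophage sum did not, and the endothelial sum was lowest where muscle actin was highest. Among lists of the actin system described below, the Arp2/3 sums had this order too, at 2576, 2703 and 2473 TPM. So did the sums for actin monomer binding and turnover, at 10005, 10665 and 9653 TPM. The order was therefore not particular to lists of a cell type. Sums follow the most abundant genes of a list. Among the marker lists, medians of log2(TPM + 1) minus the wild-type mean kept that order only for the visceral or pericyte list. In overexpression replicates 1, 2 and 3 they were 0.33, 0.78 and 0.08 there. The Arp2/3 medians kept it as well, at 0.14, 0.21 and 0.07, and those of actin monomer binding and turnover at 0.10, 0.11 and -0.003. The smooth muscle medians were 0.54, 0.44 and 0.20, and the fibroblast medians 0.62, 0.06 and 0.21. The part of these lists in the muscle actin values was not tested.

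**Figure D4:**
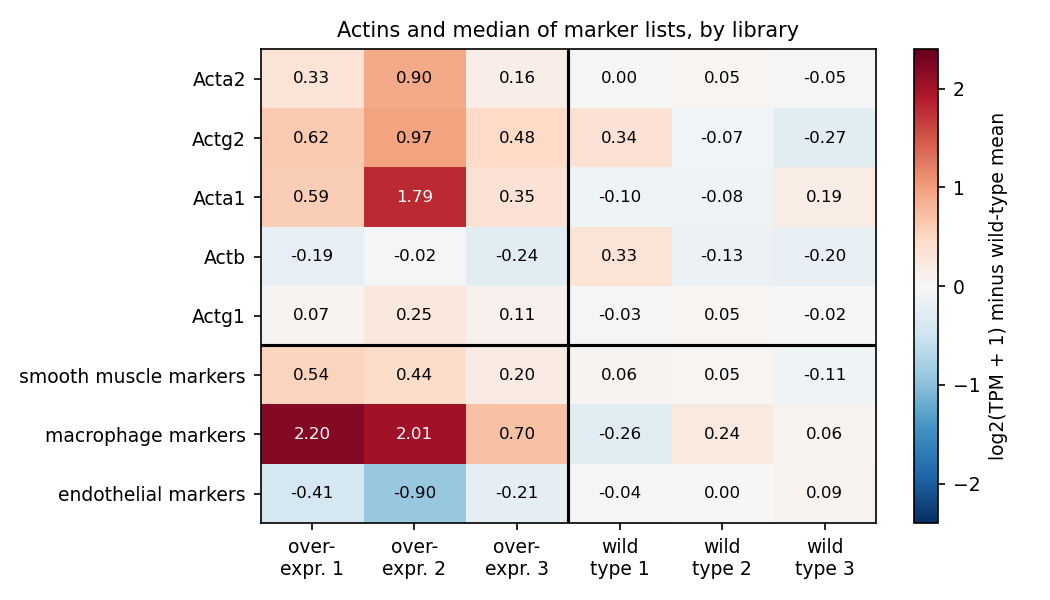
Log2(TPM + 1) minus the wild-type mean for the 5 tested actins, and the median of the same over the genes of 3 marker lists, in each library, overexpression left of the black line. Overexpression replicate 2 had the largest values of Acta2, Actg2 and Acta1 at 0.90, 0.97 and 1.79, while the macrophage median was largest in overexpression replicate 1 at 2.20.

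Named members of the marker lists gave these log2 fold changes, none of them called by limma. The counts below stand beside 10.6% of all genes tested higher and 8.94% lower at an unadjusted p under 0.05. Among macrophage genes, Lyz2, the myeloid lysozyme, had 2.30, the complement gene C1qa 1.79 and Aif1 1.70, with 14 of 14 at an unadjusted p under 0.05 and a median of 1.63. Among endothelial genes, Emcn, endomucin, had -0.86, the junction gene Cdh5 -0.61 and the transcription factor gene Sox17 -0.41, with 9 of 12 lower at an unadjusted p under 0.05 and a median of -0.49. Among fibroblast genes, the type I collagen chains Col1a1 and Col1a2 had 1.27 and 1.35, while Dcn, named after its values were seen, had -0.58. Lum, Dpt and Tcf21 were under 1 TPM. At an unadjusted p under 0.05, 2 of 6 tested genes were higher and 1 of 6 lower. The median over these 6 was 0.03 (-0.04 without wild-type replicate 1 and 0.45 without overexpression replicate 3). Collagens are also made by smooth muscle cells. In the list of visceral smooth muscle and pericyte markers, Cspg4 had 1.08, Pdgfrb 0.76 and Ano1, a chloride channel gene, -0.19, with 3 of 6 higher and 1 of 6 lower at an unadjusted p under 0.05 and a median of 0.33. Without overexpression replicate 3, limma called 14 macrophage, 6 endothelial, 3 smooth muscle, 2 fibroblast, 1 cardiac and 3 visceral or pericyte genes, and no actin, where that fit called 6.3% of all genes.

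Genes of the wider actin system gave no call in limma. The median of the Arp2/3 list lay just above the middle 50% of all genes, and those of the other 6 lists lay within it. The chaperonin CCT and its partner prefoldin fold new actin. Of 14 tested genes, 3 were higher at an unadjusted p under 0.05 and none lower, where 10.6% of all genes were higher and 8.94% lower, with a median log2 fold change of 0.05. Tcp1, a CCT subunit, stood at 277, 286 and 294 TPM in overexpression and 229, 249 and 244 TPM in wild-type cultures, with 0.25 (adjusted p = 0.131), and the prefoldin genes Vbp1 and Pfdn5 had 0.23 and 0.29, while Cct2 had 0.08. Enzymes that modify actin gave 1 of 5 lower, beside 8.94% of all genes, and a median of -0.11. That gene was Naa80, which acetylates the actin N-terminus, at 50.8, 45.9 and 56.3 TPM in overexpression and 72.4, 63.2 and 61.9 TPM in wild-type cultures, with -0.36 (adjusted p = 0.143). The actin histidine methyltransferase gene Setd3 had 0.06 and Naa10 0.14.

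Genes that bind actin monomers or cut filaments gave 6 of 18 higher and 1 of 18 lower at an unadjusted p under 0.05, against 10.6% and 8.94% of all genes tested, with a median of 0.08. Gsn, gelsolin, which severs filaments, was at 573, 555 and 542 TPM in overexpression and 410, 468 and 473 TPM in wild-type cultures, with a log2 fold change of 0.31 (limma adjusted p = 0.131), and the profilin gene Pfn2 had 0.27. The thymosins, which hold actin monomers, had opposite signs, with Tmsb4x at 0.27 and Tmsb10 at -0.22. In the Arp2/3 complex, which starts branched filaments, 4 of 9 were higher and none lower, beside the same shares of all genes, with a median of 0.12. Its actin-related subunits Actr2 and Actr3 had 0.22 and 0.20, Arpc2 had 0.16 and Arpc3 0.01. Among capping and crosslinking genes 6 of 20 were higher and 4 of 20 lower, beside the same shares, with a median of 0.01. There Lmod1, leiomodin of smooth muscle, had 0.73, Lcp1, the plastin of leukocytes, 1.45, and the alpha-actinins Actn1 and Actn4 0.07 and -0.11. Lcp1 was at 79.0, 72.2 and 28.3 TPM in overexpression replicates 1, 2 and 3, in the order of the macrophage list and not of the muscle actins.

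The list of SRF and its coactivators, which also holds LIM protein genes, gave 2 of 8 higher and 1 of 8 lower at an unadjusted p under 0.05. Its median was 0.01, where 10.6% of all genes were higher and 8.94% lower. The 2 higher were the LIM protein genes Fhl1 and Fhl2, with log2 fold changes of 0.42 and 0.78, and not Srf, Myocd or an MRTF gene. Csrp1 had 0.09. Srf itself, named after its values were seen, was at 37.4, 46.7 and 44.5 TPM in overexpression and 47.6, 44.5 and 46.6 TPM in wild-type cultures, with overlap. Its partner Myocd, named likewise, was at 8.99, 4.03 and 5.55 TPM in overexpression and 4.20, 5.36 and 4.28 TPM in wild-type cultures. Myocd also overlapped between the groups, with a log2 fold change of 0.30 (limma adjusted p = 0.531). Of the MRTF genes, named likewise, Mrtfa overlapped, with -0.08. Mrtfb was the lower gene, at 42.5, 31.5 and 44.4 TPM in overexpression and 48.6, 47.6 and 49.4 TPM in wild-type cultures. The groups did not overlap for Mrtfb, with -0.31 (limma adjusted p = 0.246). The part of Srf, Myocd and the MRTF genes in the actin values was not tested. Other genes of the actin family, which encode actin-related proteins of dynactin and of chromatin complexes, gave 1 of 7 higher, beside 10.6% of all genes, with a median of -0.01, Actr10 at 0.26, Actr8 at 0.16 and Actr1a at -0.09. Without overexpression replicate 3 limma called Lmod1, Lcp1, Fhl1 and Fhl2 higher and Naa80 and Fscn1 lower, the last named after its values were seen, and without any other library it called no gene of these lists. These are 6 of 81 tested genes of the lists, where that fit called 6.3% of all genes, so the share of the lists was near that of all genes.

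**Figure D5:**
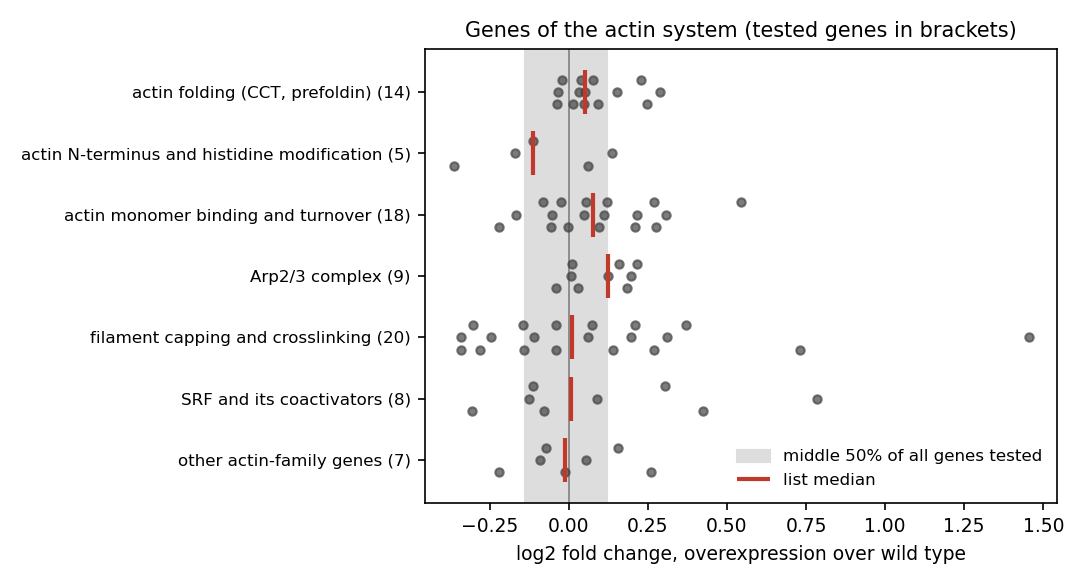
Log2 fold change of overexpression over wild type for each tested gene (dot) of 7 lists of the actin system, with the list median as a red line and a band for the middle 50% of all genes tested. The list medians run from -0.11 to 0.12, and the dot farthest right is Lcp1 at 1.45.

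The genes whose pattern over the 6 libraries was most like that of Acta2 were Cyp51 and Fdps, enzymes of sterol synthesis, and Ndrg4. Likeness was the root mean square difference of log2(TPM + 1) after each gene was centred on its own mean, among 8728 genes averaging 10 TPM or more, and was 0.0283, 0.0290 and 0.0399. Cyp51 stood at 73.2, 109.7 and 66.6 TPM in overexpression and 55.6, 59.9 and 56.4 TPM in wild-type cultures, with overexpression replicate 2 highest as for Acta2. For Actg2 the closest were Npnt, the integrin ligand nephronectin, at 0.0912, the actin-binding protein gene Nexn at 0.109 and the kinase gene Dmpk at 0.118. For Acta1 they were the collagen gene Col16a1 at 0.0981, the guidance cue gene Sema3a at 0.126 and the glypican gene Gpc1 at 0.162. The 9 genes had log2 fold changes between 0.44 and 1.03, and none was called by limma. They were chosen by their pattern over these same libraries, so fold changes near those of the actins follow from the choice.

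Chromatin was measured by ATAC-seq in 2 mice of each genotype, merged by genotype in the authors' deposited table of motif footprints. For the SRF motif the authors' deposited table gives a mean footprint score of 0.211 in overexpression and 0.196 in wild-type cultures, with 818 and 646 of 8649 sites called bound. For the MEF2A motif the authors' deposited table gives 0.186 in overexpression and 0.144 in wild-type cultures, with 1710 and 1139 of 27566 sites called bound. The change score of the authors' deposited table runs as wild type over overexpression and was -0.17 for SRF and -0.63 for MEF2A, against a median of -0.11 over 879 motifs. Ordered from the most negative, SRF ranked 374 and MEF2A ranked 15, so the SRF score lay near the middle of all motifs. These scores are over all sites of a motif in the genome and not over the actin genes.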

How the data were processed

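RNA was measured in 3 overexpression and 3 wild-type libraries, grouped by the genotype label. Per the labels the TPM values that the authors deposited for each gene come from kallisto. Submitters' processing notes name mm10. The annotation, software version and read totals are not stated in those sources. The authors also deposited a table of motif footprints with a mean footprint signal and a count of bound sites per genotype, a change score and a p-value, per the file headers. The deposited change score was taken as log2 because it lies on both sides of 0, which the headers do not state, and the deposited p-value was not used.

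The test was limma 3.58.1 (eBayes with trend, two-sided, R 4.3.3) on log2(TPM + 1), over the 13131 genes averaging 1 TPM or more, with Benjamini-Hochberg adjustment over all of them and a threshold of 0.05. Such fold changes understate the change of low genes. The script was tested on simulated data. An exact test of 3 against 3 cannot give a p below 0.1. Each library came from its own mouse per the titles, and all carry the same batch label. The actins and gene lists were chosen with earlier results of these data known. Lmod1 and Myocd are each in 2 lists.

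Genes named are the 6 actins, Adamts7, from each list the 2 tested genes of lowest p and the 2 of highest mean TPM, and for each muscle actin of at least 1 TPM the 3 genes of most similar pattern, apart from those said to be named after their values were seen and the defining markers Myod1, Myh4, Lum, Dpt and Tcf21, named likewise. The SRF and MEF2A motifs were also named by that rule. Positions and promoter sequences came from RefSeq tables of GRCm38.p6, where 6 of 6 actins had a position and 4 a promoter. For Acta2 the start of the promoter table lies inside the gene span. In GRCm38.p6 Acta2 (ENSMUSG00000035783.9) lies on chromosome 19 from 34240336 to 34255585, Actg2 on chromosome 6 from 83512909 to 83536251, Acta1 on chromosome 8 from 123891758 to 123894775, Actc1 on chromosome 2 from 114047282 to 114052875, Actb on chromosome 5 from 142903115 to 142907976 and Actg1 on chromosome 11 from 120345687 to 120348495, and each value covers the whole gene. Alternatives were other scalings, pseudocounts and filters, no trend, library weights, a replicate block and leaving out each library. Figures were drawn in Python 3.11.15 with matplotlib 3.10.9.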

Additional observations from a re-analysis of the deposited data

How the results depend on the processing

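The direction of Acta2, Actg2 and Acta1 was the same under each of the alternatives in which they were tested (16, 16 and 15), and Acta1 was not tested with a mean of at least 5 TPM. Leaving out 1 library gave log2 fold changes of 0.24 to 0.61 for Acta2, 0.55 to 0.86 for Actg2, 0.47 to 1.19 for Acta1, -0.25 to 0.0143 for Actb and 0.09 to 0.18 for Actg1. Library weights called Acta2 (0.33) and Actg2 (0.69), and quantile normalisation turned Actg1 to -0.0142; the cause was not tested. The number of genes called, 2, was 2728 with library weights, 1 with a mean of at least 5 TPM and 1 with a replicate block, and between 1 and 828 with 1 library left out, the last without overexpression replicate 3. The replicate numbers did not pair the mice (correlations of deviations -0.02, 0.06 and 0.02 for the 3 same-numbered pairs), and the block called no actin (adjusted p = 0.177 for Acta2 and 0.129 for Actg2). With 1 library left out, list medians reached 0.07 and 0.19 for Arp2/3, -0.04 and 0.05 for capping and crosslinking genes and -0.07 and 0.05 for SRF and its coactivators. Library weights moved the medians of SRF and its coactivators to -0.07 and of smooth muscle and fibroblast markers to 0.52 and 0.57, and a mean of at least 5 TPM moved that of fibroblast markers to 0.43. Among other named genes, library weights turned Naa10 to -0.0122, Arpc3 to -0.0345, Csrp1 to -0.0753, Mylpf to -0.22 and Tnni3 to -0.16. Quantile normalisation turned Arpc3 to -0.000757 and Mylpf to -0.0738, and leaving out mitochondrially encoded genes turned Arpc3 to -0.00996. With 1 library left out, Arpc3 lay between -0.0152 and 0.0314, Csrp1 lay between -0.0847 and 0.18, Mylpf between -0.21 and 0.17 and Tnnc1 between -0.24 and 0.11. Read depth is unknown, so what depth limits, for Actc1 above all, could not be stated.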
